A study of Mus musculus with 6 samples.

Results

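MHC class I and antigen presentation are represented here by 7 genes, B2m, H2-K1, H2-D1, Nlrc5, Tap1, Psmb8 and Psmb9, which were taken by symbol from the 31053 genes counted in single nuclei of the mouse colon. Each symbol matched 1 gene in all 6 libraries. The nuclei were sorted on a DNA stain and on INTACT, a tag of the nuclear envelope, to collect the enteric nervous system, the neurons and glia of the gut wall. All mice were wild-type C57BL/6J. The Stress group (3 libraries) had 7 days of daily restraint, the Dexamethasone group (1 library) had 7 days of injections of this synthetic glucocorticoid, and the Control group (2 libraries) had a control treatment. The labels give neither the cells that carry the INTACT tag, nor the dose, nor the age or number of mice behind a library. The labels do not tie the libraries to different animals. The p-values below therefore rest on the spread between libraries, which may be technical.

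MHC class I molecules show short peptides from inside a cell to CD8 T cells. A heavy chain (H2-K1 or H2-D1) pairs with the light chain B2m. The peptides are cut by the proteasome, in which interferon puts the catalytic subunits Psmb8 and Psmb9 in place of constitutive ones, and are carried into the endoplasmic reticulum by a transporter of which Tap1 is one chain. Nlrc5 is the transactivator of these genes: it is recruited by DNA-binding factors that sit on a promoter module shared by these genes, called SXY. Neurons are known for low class I levels at rest.

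The genes lie in 3 places of the mouse genome (GRCm38, GENCODE M21). B2m is at chr2:122147686-122153083 on the plus strand and overlaps Patl2 on the other strand. Nlrc5 is at chr8:94434356-94527272 on the plus strand and overlaps 9330175E14Rik on the other strand. The other 5 lie in the MHC on chromosome 17: H2-K1 at chr17:33996017-34000347 (minus strand), Psmb9 at chr17:34181987-34187764 (minus strand), Tap1 at chr17:34187553-34197225 (plus strand), Psmb8 at chr17:34197721-34201454 (plus strand) and H2-D1 at chr17:35262730-35267499 (plus strand). Psmb9 and Tap1 overlap at their starts on opposite strands. Whether the counting used strand is not given in the sources used here, so reads from such overlaps cannot be told apart. Of all 50-base stretches of the H2-K1 transcripts, 9.63% also occur in other genes, most often H2-Q10, and of those of H2-D1 12.8% do, most often H2-Q1. Counts of these heavy chains are to that extent uncertain.

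Promoter sequences of 6 of the 7 genes were found in RefSeq (GRCm38.p6). They are shown for the light chain, both heavy chains and the pair of genes that share a start region, because the SXY module and interferon elements of these genes lie there. Each of the first 3 lines holds the 250 bases before the start of the transcript, and the fourth the 225 bases between the starts of Psmb9 and Tap1, read on the Tap1 strand. They lie at chr2:122147437-122147686 (plus strand) for B2m, chr17:34000348-34000597 (minus strand) for H2-K1, chr17:35262844-35263093 (plus strand) for H2-D1 and chr17:34187331-34187555 (plus strand) for the interval. The H2-D1 window and the interval lie inside H2-D1 and Psmb9 as GENCODE annotates these genes, from earlier starts. Starts here are those of RefSeq, while the overlap of Psmb9 and Tap1 above is that of GENCODE. Capitals mark matches, on either strand, to 5 motifs: the core of the interferon-stimulated response element (GAAA, any 2 bases, GAAA), the STAT element TTCNNNGAA, the X2 box core TGACG, the Y box ATTGG, and a kappaB site (GGG, any 2 bases, then TTCC or TTTCC).
B2m: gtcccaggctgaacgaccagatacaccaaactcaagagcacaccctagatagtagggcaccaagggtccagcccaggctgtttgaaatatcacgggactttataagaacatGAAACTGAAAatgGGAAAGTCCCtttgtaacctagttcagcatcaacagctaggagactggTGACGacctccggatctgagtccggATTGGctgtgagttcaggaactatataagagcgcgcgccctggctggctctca
H2-K1: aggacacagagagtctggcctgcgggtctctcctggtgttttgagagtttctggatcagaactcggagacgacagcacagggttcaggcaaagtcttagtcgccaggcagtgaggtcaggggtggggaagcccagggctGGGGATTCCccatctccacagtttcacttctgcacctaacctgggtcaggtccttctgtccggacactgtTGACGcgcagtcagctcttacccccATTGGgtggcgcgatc
H2-D1: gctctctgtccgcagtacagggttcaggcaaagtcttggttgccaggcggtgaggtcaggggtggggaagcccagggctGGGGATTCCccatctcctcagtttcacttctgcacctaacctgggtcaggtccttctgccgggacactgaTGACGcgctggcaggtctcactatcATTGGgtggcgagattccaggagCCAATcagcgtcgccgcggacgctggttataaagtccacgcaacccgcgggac
Psmb9-Tap1 interval: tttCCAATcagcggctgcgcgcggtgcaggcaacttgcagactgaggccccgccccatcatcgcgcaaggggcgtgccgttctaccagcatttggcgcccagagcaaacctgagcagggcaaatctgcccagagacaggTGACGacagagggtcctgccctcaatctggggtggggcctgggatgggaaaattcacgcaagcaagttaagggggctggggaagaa
B2m holds GAAACTGAAA from base -139 to -130, next to a kappaB match on the minus strand. No other window held this core. The search took the letters above exactly, so it would miss a looser form of an interferon element, also in H2-K1 and H2-D1. B2m, H2-K1 and H2-D1 each have TGACG followed by ATTGG, and the starts of these matches are 25 bases apart in all 3 of them. In H2-K1 and H2-D1 a kappaB match, GGGGATTCC, starts 70 bases before TGACG. Over 190 bases that could be aligned without gaps, the H2-K1 and H2-D1 promoters are identical at 166, or 87.4%. The interval has CCAAT, the Y box on the other strand, from base -222 to -218, and TGACG from base -86 to -82. These matches lie further apart than the 25 bases above. The Psmb8 window, which also lies inside its gene as GENCODE annotates it, held a STAT element, TTCCCAGAA. Of 32851 mouse promoter windows of this length, 2.98% hold the response element core, 7.02% the STAT element, 17.8% the X2 core, 33.9% the Y box and 5.99% a kappaB match. A match is a run of letters and does not show that a factor was bound.

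The files held 11040 barcodes, and totals per library ran between 6057994 and 14838057 unique molecular identifiers (UMIs, each a counted transcript copy). A nucleus was kept where 300 or more genes were detected and mitochondrially encoded UMIs made up 5% or less, and 3430 nuclei remained after doublets were removed. The median share of mitochondrially encoded UMIs over all barcodes was 4.44% to 13.4% in Stress libraries, 5.98% in Dexamethasone, and 8.80% and 19.8% in Control. Clusters were built without the 7 genes and without the related lists, and were named by marker genes, which gave 877 glia-like and 460 neuron-like nuclei. Each library had 113 to 203 glia-like and 29 to 125 neuron-like nuclei. Pairs of libraries shared at most 3 cell barcodes. Stress 1 and Control 1 had the fewest UMIs per nucleus, with medians of 1629 and 1802. In glia-like nuclei the summed glial markers were 4609 to 5526 CPM (counts scaled to 1000000 UMIs of the class) in Stress, 4882 CPM in Dexamethasone, and 3000 and 3887 CPM in Control.

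Glia-like nuclei of stressed mice had more transcripts of the transactivator Nlrc5 and of the light chain B2m. Both passed the test, with fitted folds of 2.94 and 2.86. The heavy chain H2-D1 was higher by a like size but missed the threshold. H2-K1, Tap1 and the immunoproteasome subunits were not called, the last of these because they had too few UMIs to be tested. Nlrc5 was at 151, 182 and 134 CPM in Stress, against 44.8 and 57.0 CPM in Control. The lowest Stress library stood above both Control libraries. Its log2 fold change was 1.56 ± 0.26 (SE), with an adjusted p of 0.00806 by edgeR's quasi-likelihood test with Benjamini-Hochberg adjustment over all genes tested.

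B2m was at 284, 172 and 118 CPM in the Stress libraries, against 57.6 and 66.2 CPM in the Control libraries, again without overlap. Stress 1 was the highest of the 3. The log2 fold change of B2m was 1.52 ± 0.35 (adjusted p = 0.0395, edgeR). The call did not hold when any 1 of 4 libraries was left out. The log2 fold change was then 1.15 without Stress 1 (adjusted p = 0.0732, edgeR), 1.58 without Stress 2 (0.0881), 1.43 without Control 1 (0.0811) and 1.60 without Control 2 (0.0766). It was 1.41 (0.0639) without nuclei that held a UMI of an immune marker, where the call was lost too. H2-D1, a classical heavy chain, was at 396, 167 and 143 CPM in Stress, against 51.2 and 91.3 CPM in Control. The groups did not overlap, and the log2 fold change was 1.62 ± 0.42 (adjusted p = 0.0708, edgeR). Without Stress 1 the log2 fold change of H2-D1 was 1.07, and by DESeq2 its adjusted p was 0.0151.

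H2-K1, the other classical heavy chain, was at 329, 182 and 140 CPM in Stress, against 102 and 160 CPM in Control. One Control library lay above one Stress library, and the log2 fold change was 0.63 ± 0.33 (adjusted p = 0.459, edgeR). Tap1 was at 25.8, 16.7 and 31.1 CPM in Stress, against 12.8 and 11.4 CPM in Control, from 43 and 11 UMIs over each group. Its log2 fold change was 1.00 ± 0.54 (adjusted p = 0.474, edgeR). Psmb8 had 4, 1 and 7 UMIs in Stress, against 0 in either Control library. That is 2.19-fold higher against a floor of 3 counts over the Control group. The exact 95% counting interval of the ratio, taken with 0 Control UMIs and without that floor, starts at 1.52. Psmb9 had 10, 3 and 7 UMIs in Stress, against 0 and 1 UMIs in Control, a CPM ratio of 11 with an exact 95% counting interval of 1.75 to 454. Such intervals and floors cover counting error only.

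**Figure D1:**
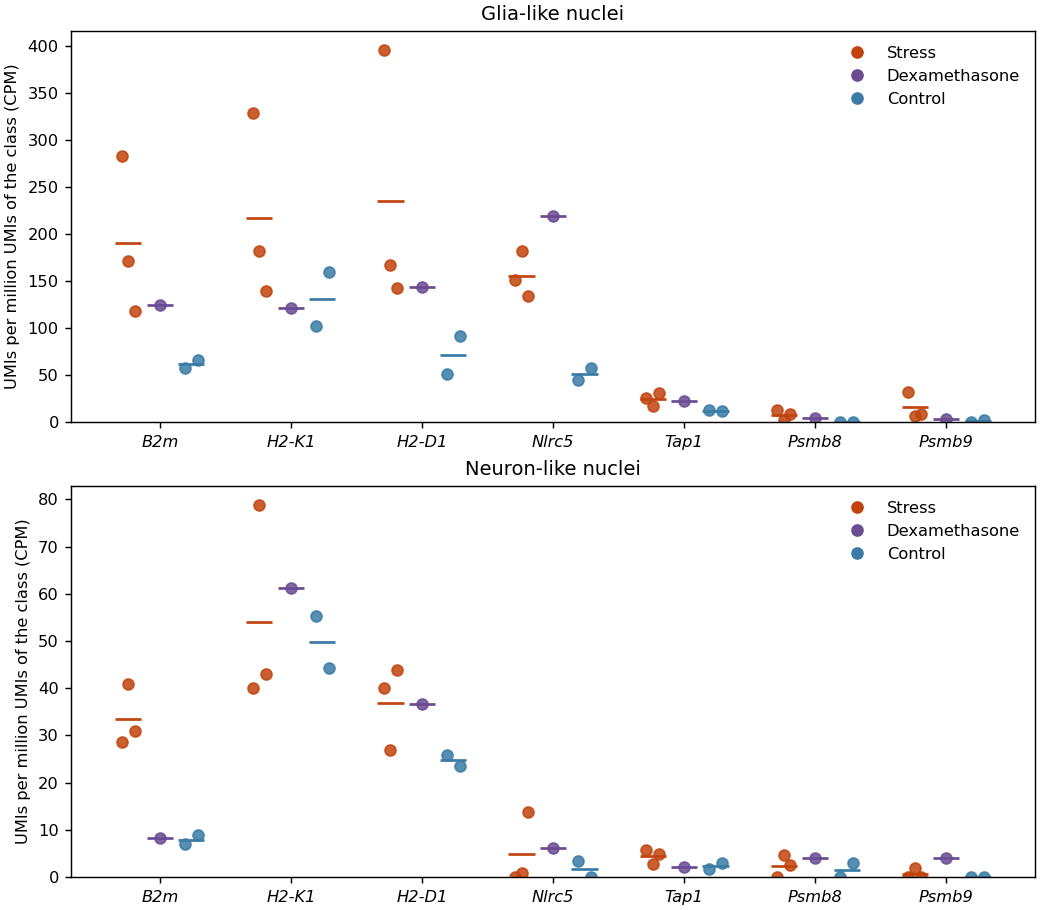
Level of each of the 7 genes in glia-like (top) and neuron-like (bottom) nuclei, in CPM of the class; points are libraries and bars are group means. In glia-like nuclei the Stress points of B2m, H2-D1, Nlrc5 and Tap1, and from few UMIs those of Psmb8 and Psmb9, lie above both Control points. The scales of the panels differ.

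Of the 5 genes tested in glia-like nuclei under stress, 2 were called higher, where 1.5% of all 6537 genes tested were. In 4 of the 5, B2m, H2-D1, Nlrc5 and Tap1, every Stress library stood above both Control libraries, which 16.9% of all genes tested did. The median log2 fold change was 1.52 over these 5 genes and -0.01 over all genes tested. The 7 genes were chosen with earlier results of these data known, so these shares describe them and do not test them as a set. Nlrc5 kept its call when any 1 library was left out, with log2 fold changes of 1.40 to 1.72. With limits of 500 genes and 2% mitochondrially encoded UMIs per nucleus it was at 0.89 (adjusted p = 0.540, edgeR) and B2m at 1.62 (adjusted p = 0.145), and no member was called.

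The glia-like class joined 3 clusters whose shares moved with the groups. Cluster 9, led by Rnf122, Nr4a2, Nr4a3 and Tgfb2, made up 35.5%, 69.5% and 77.4% of glia-like nuclei in Stress, 84.1% in Dexamethasone, and 31.0% and 20.3% in Control. Cluster 11, led by Frzb and Col11a1, made up 50%, 10.2% and 4.42% in Stress, 6.20% in Dexamethasone, and 49.8% and 63.0% in Control. Within cluster 9, Nlrc5 was at 181, 171 and 129 CPM in Stress, against 64.8 and 58.9 CPM in Control. The groups stayed apart, with a log2 fold change of 1.27 ± 0.34 (adjusted p = 0.0780, edgeR). B2m in cluster 9 was at 242, 152 and 108 CPM in Stress, against 50.9 and 33.7 CPM in Control, a log2 fold change of 1.76 ± 0.44 (adjusted p = 0.0623, edgeR). H2-D1 there had a log2 fold change of 1.60 ± 0.45 (adjusted p = 0.0949, edgeR). None of the 4 members tested in cluster 9 was called, where 1.12% of 4105 genes were called higher.

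In cluster 8, which had fewer nuclei, none of the 4 members tested was called either, where 0.365% of 1371 genes were called higher. There Nlrc5 had 2, 12 and 15 UMIs in Stress, against 1 and 2 UMIs in Control, with a log2 fold change of 2.26 ± 0.92 (adjusted p = 0.286, edgeR). B2m in cluster 8 was at 423, 271 and 205 CPM in Stress, against 95.9 and 144 CPM in Control, with a log2 fold change of 1.15 ± 0.50 (adjusted p = 0.330, edgeR). H2-D1 in cluster 8 was at 648, 298 and 162 CPM in Stress, against 63.9 and 234 CPM in Control, so the groups overlapped (log2 fold change 1.10 ± 0.57, adjusted p = 0.473, edgeR). Cluster 11 had only 8 nuclei in Stress 3 and was not fitted. Its Nlrc5 level was 129, 427 and 182 CPM in Stress, against 31.6 and 60.6 CPM in Control, the Stress 3 value resting on 3 UMIs. B2m there was at 312, 171 and 60.7 CPM in Stress, the last from 1 UMI, against 52.6 and 64.4 CPM in Control, and the groups overlapped. H2-D1 in cluster 11 was at 474, 299 and 303 CPM in Stress, against 42.1 and 75.8 CPM in Control. H2-K1 was at 258, 299 and 364 CPM, against 78.9 and 125 CPM, both without overlap. In Stress 2 and Stress 3 these values rest on 7 and 5 UMIs of H2-D1 and on 7 and 6 UMIs of H2-K1. The share of all genes without overlap was not computed in this cluster.

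Markers of other cells in glia-like nuclei were compared as summed CPM. Of 17 marker lists, 4 were higher in every Stress library than in both Control libraries (glia, lymphatic endothelium, pericyte and plasma cell), 1 was lower and 12 overlapped. Lymphatic endothelium markers were at 90.2 to 149 CPM in Stress, 218 CPM in Dexamethasone, and 53.3 to 59.3 CPM in Control. Macrophage markers, whose cells carry much class I, were at 4.19 to 16.2 CPM in Stress and at 2.13 to 6.85 CPM in Control, with Cd163 at 0, and all 4 neutrophil markers were at 0 in every library. Without nuclei that held a UMI of an endothelium marker, B2m had a log2 fold change of 1.49 (adjusted p = 0.0459, edgeR) and Nlrc5 of 1.71 (adjusted p = 0.00888). Without those that held an immune marker UMI, Nlrc5 was at 1.58 (adjusted p = 0.00696, edgeR). The part of pericyte markers (53.1 to 67.0 CPM in Stress, 43.4 to 44.8 CPM in Control) and plasma cell markers (6.28 to 15 CPM in Stress, 2.13 to 4.56 CPM in Control) in these results was not tested.

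Each nucleus was also thinned to 1000 UMIs. The share of glia-like nuclei with a UMI of Nlrc5 or B2m was then higher in every Stress library than in both Control libraries. That held for H2-K1, H2-D1 and, from few nuclei, Psmb9, but not for Tap1 or Psmb8. The share of all genes with this pattern after thinning was not computed. After thinning, Nlrc5 was found in 11.2%, 12.3% and 13% of glia-like nuclei in Stress, 23.1% in Dexamethasone, and 4.60% and 3.70% in Control. In neuron-like nuclei, thinned to the same depth, 1 of 389 nuclei in the 6 libraries held an Nlrc5 UMI. B2m was found in 22.4%, 15.8% and 10.2% of thinned glia-like nuclei in Stress, 12% in Dexamethasone, and 6.32% and 8.15% in Control. At least 1 UMI of any of the 7 genes was seen in 65.3%, 41.2% and 46.3% in Stress, 47.2% in Dexamethasone, and 23% and 31.1% in Control. Before thinning these shares were 81.5%, 82.2% and 86.2% in Stress, 92.0% in Dexamethasone, and 39.9% and 63.8% in Control. Median depths per glia-like nucleus were 1696 to 4489 UMIs in Stress, 5526 UMIs in Dexamethasone, and 2124 and 3112 UMIs in Control. Thinning left out 71 of 877 glia-like nuclei and 71 of 460 neuron-like nuclei as too shallow. In Dexamethasone it left out 32 of 63 neuron-like nuclei. None of the classes here is known to lack class I altogether, so background RNA was not measured for these genes apart from the neuron-like share.

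**Figure D2:**
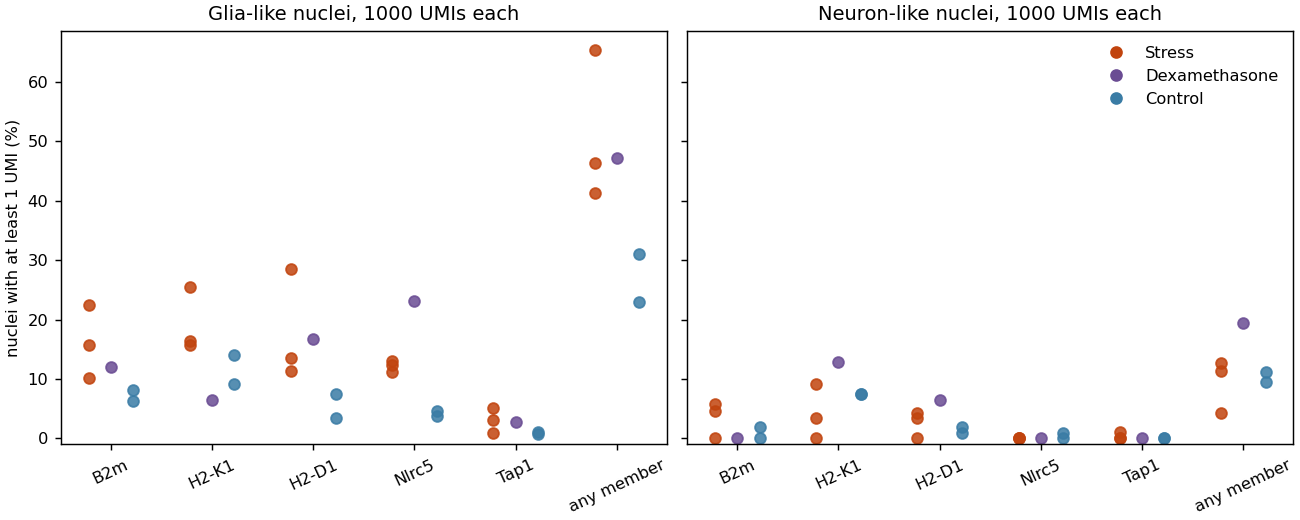
Percent of nuclei with at least 1 UMI of a gene after thinning every nucleus to 1000 UMIs, by library, in glia-like (left) and neuron-like (right) nuclei. For Nlrc5 the Stress libraries sit between 11.2% and 13% of glia-like nuclei, Dexamethasone at 23.1%, and Control at 3.70% and 4.60%.

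In the Dexamethasone library, B2m, H2-D1, Nlrc5 and Tap1 lay above both Control libraries in glia-like nuclei. So did Psmb8 and Psmb9, from 3 and 2 UMIs. The share of all genes for which this single library lay above both Control libraries was not computed. Nlrc5 had the largest fitted rise of the members tested. It was at 220 CPM in Dexamethasone, against 44.8 and 57.0 CPM in Control. Its log2 fold change was 2.20 ± 0.31 (adjusted p = 2.40e-04, edgeR), in a fit over all 6 libraries which assumes that the single library varies like the others. The call held in all 18 alternatives tried, with log2 fold changes of 2.05 to 2.37. Of the 6 members tested, 1 was called higher, where 5.28% of 7674 genes were. B2m was at 125 CPM in Dexamethasone, against 57.6 and 66.2 CPM in Control (log2 fold change 1.11 ± 0.42, adjusted p = 0.143, edgeR), and H2-D1 at 144 CPM, against 51.2 and 91.3 CPM (1.12 ± 0.49, adjusted p = 0.216). H2-K1 was at 122 CPM in Dexamethasone, between the Control values of 102 and 160 CPM. Tap1 was at 22.3 CPM in Dexamethasone, against 12.8 and 11.4 CPM in Control. Psmb8 had 3 UMIs in Dexamethasone, against 0 in Control. The Dexamethasone and Stress comparisons share the same Control libraries, and the Dexamethasone counts were made with another version of the counting software, which cannot be told apart from the treatment. Smooth muscle markers in glia-like nuclei were at 368 CPM in Dexamethasone, against 27.7 and 38.8 CPM in Control, and none of the 8 was at 0 in every library. Their part in these values was not tested.

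Neuron-like nuclei held less B2m, H2-K1, H2-D1, Nlrc5 and Tap1 per UMI than glia-like ones, and no member was called there in either comparison. B2m was at 28.6, 40.8 and 30.9 CPM in Stress neuron-like nuclei, against 6.91 and 8.84 CPM in Control. The groups did not overlap and the log2 fold change was 2.10 ± 0.47 (adjusted p = 0.157, edgeR), from 87 and 7 UMIs over each group. H2-D1 was at 40.1, 26.9 and 43.9 CPM in Stress, against 25.9 and 23.6 CPM in Control, also without overlap (log2 fold change 0.47 ± 0.37, adjusted p = 0.709, edgeR). H2-K1 was at 40.1, 78.9 and 43.0 CPM in Stress, against 55.3 and 44.2 CPM in Control, and the groups overlapped. Nlrc5 had 0, 1 and 17 UMIs in Stress neuron-like nuclei, against 2 and 0 UMIs in Control, so nearly all of it came from Stress 3. Tap1, Psmb8 and Psmb9 had at most 6 UMIs in any neuron-like library.

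In Stress against Control, 0 of 3 members tested in neuron-like nuclei were called higher, where 0% of 7514 genes were. At an unadjusted p under 0.05 there were 761 genes, and DESeq2 called 15 genes, none of them a member. B2m and H2-D1, which is 2 of the 3, did not overlap, a pattern seen in 15.8% of genes tested. A cluster led by Penk and Tac1, transmitter genes of excitatory enteric motor neurons, stayed unnamed by the rule used and was left out of the class. With it added, the log2 fold change of B2m was 1.25 (adjusted p = 0.367, edgeR). Markers of smooth muscle in neuron-like nuclei were at 71.4 to 220 CPM in Stress, 578 CPM in Dexamethasone, and 31.1 to 35.3 CPM in Control. Those of vascular endothelium were at 32.5 to 42.7 CPM in Stress, 65.3 CPM in Dexamethasone, and 14.7 to 17.3 CPM in Control, and pericyte markers also stood higher in Stress. Plasma cell markers were at 5.73, 5.57 and 210 CPM in the Stress libraries, against 0 and 5.89 CPM in Control, so Stress 3 held nearly all of them. The part of these markers in the B2m and Nlrc5 values of neuron-like nuclei was not tested. In the Dexamethasone neuron-like nuclei B2m was at 8.17 CPM, against 6.91 and 8.84 CPM in Control, and H2-D1 at 36.8 CPM, against 25.9 and 23.6 CPM. Cluster 13, led by Nmu, held 42 of the 63 neuron-like nuclei in Dexamethasone, against 8 of 125 and 5 of 59 in Control, so these values compare different neuron-like clusters. There 0 of 3 members tested were called, where 0.435% of 8496 genes were called higher.

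Whether stress moved these genes differently in glia-like and in neuron-like nuclei was tested directly. None of the 5 members tested passed, where 0.0849% of 8241 genes did. H2-D1 had the smallest p of them, with a log2 effect larger in glia-like than in neuron-like nuclei by 0.90 ± 0.52 (adjusted p = 0.694, edgeR). For B2m the effect in glia-like minus that in neuron-like nuclei was -0.77 ± 0.62 on the log2 scale (adjusted p = 0.799, edgeR), and 0.13 with the Penk and Tac1 cluster counted as neurons. The Nlrc5 value, 0.02 ± 0.49 (adjusted p = 0.998, edgeR), rests on the few neuron-like UMIs above.

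**Figure D3:**
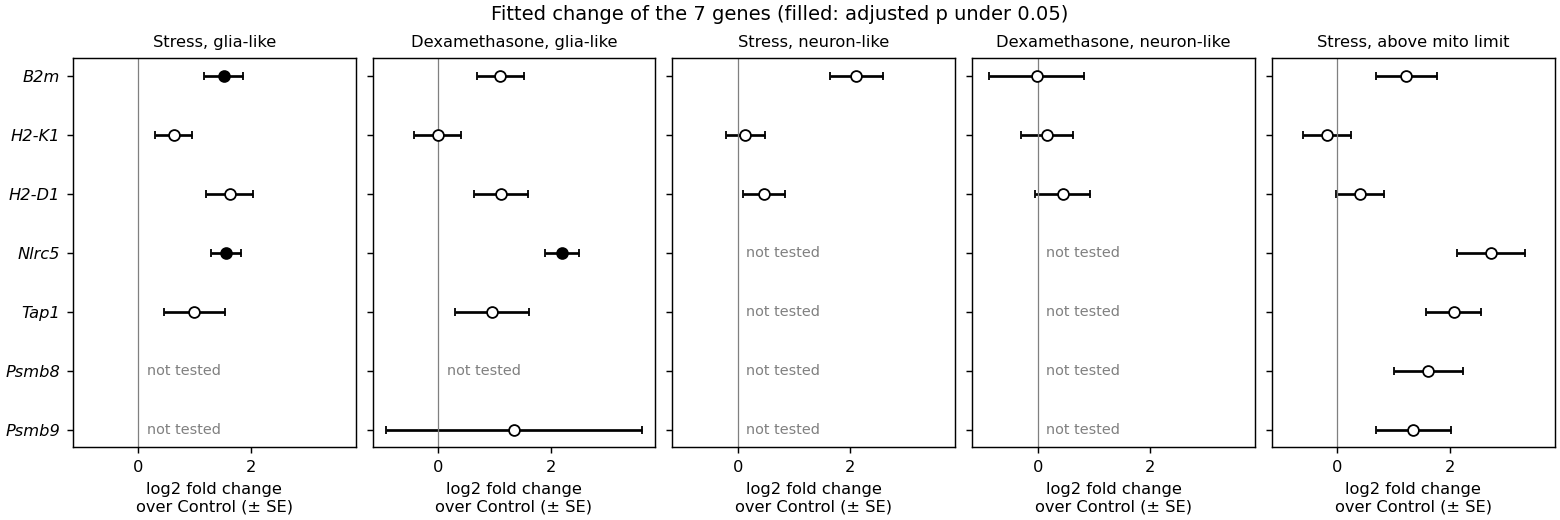
Fitted log2 fold change over Control (point) and its standard error (bar) of each of the 7 genes in 5 comparisons; filled points have an adjusted p under 0.05. Filled points are Nlrc5 and B2m in Stress glia-like nuclei and Nlrc5 in Dexamethasone glia-like nuclei.

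The levels also differed between cell classes, whatever the group. In all 6 libraries glia-like nuclei held more B2m than neuron-like nuclei, by 3.81-fold to 15.3-fold, more H2-K1 (1.85-fold to 8.20-fold), more H2-D1 (1.98-fold to 9.89-fold) and more Tap1 (3.87-fold to 10.9-fold). Nlrc5 too was higher in glia-like than in neuron-like nuclei in 6 of 6 libraries. These are levels per UMI of the class. Among thinned nuclei of Dexamethasone, H2-K1 was found in 12.9% of 31 neuron-like and 6.48% of 108 glia-like ones. In every other library the thinned H2-K1 share was higher in glia-like nuclei. For the 7 genes summed, the order of the mean over 6 libraries ran through macrophage-like (1429 ± 660 CPM, SD), vascular endothelium-like (1195 ± 492, from only 38 nuclei, 1 of them in Control 1), lymphatic endothelium-like (879 ± 358), epithelium-like (778 ± 227), glia-like (640 ± 335), fibroblast-like (458 ± 68.1), cycling cell-like (266 ± 137), smooth muscle-like (153 ± 24.4) and neuron-like nuclei (118 ± 27.7 CPM). Neighbours in this order overlapped in their ranges over libraries. The spread includes the differences between groups.

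The order was not the same for each gene. H2-K1 was at 414 ± 95 CPM in epithelium-like nuclei (SD, n = 6 libraries), against 172 ± 81.5 CPM in glia-like and 130 ± 36.5 CPM in fibroblast-like nuclei, and the ranges of the first of these and the glia-like ones overlapped. Nlrc5 was at 132 ± 69.0 CPM in glia-like nuclei, from 444 UMIs, and at 17.1 ± 22.5 CPM in epithelium-like nuclei. Its means in vascular endothelium-like nuclei (185 ± 254 CPM, from 13 UMIs) and macrophage-like nuclei (136 ± 161 CPM, from 23 UMIs) were above the glia-like mean, within ranges that overlapped it. For B2m the fibroblast-like level, 171 ± 48.5 CPM, and the glia-like level, 137 ± 83.1 CPM, lay within each other's spread. Psmb8 and Psmb9 had at most 23 UMIs in any class, so their order is not given.

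**Figure D4:**
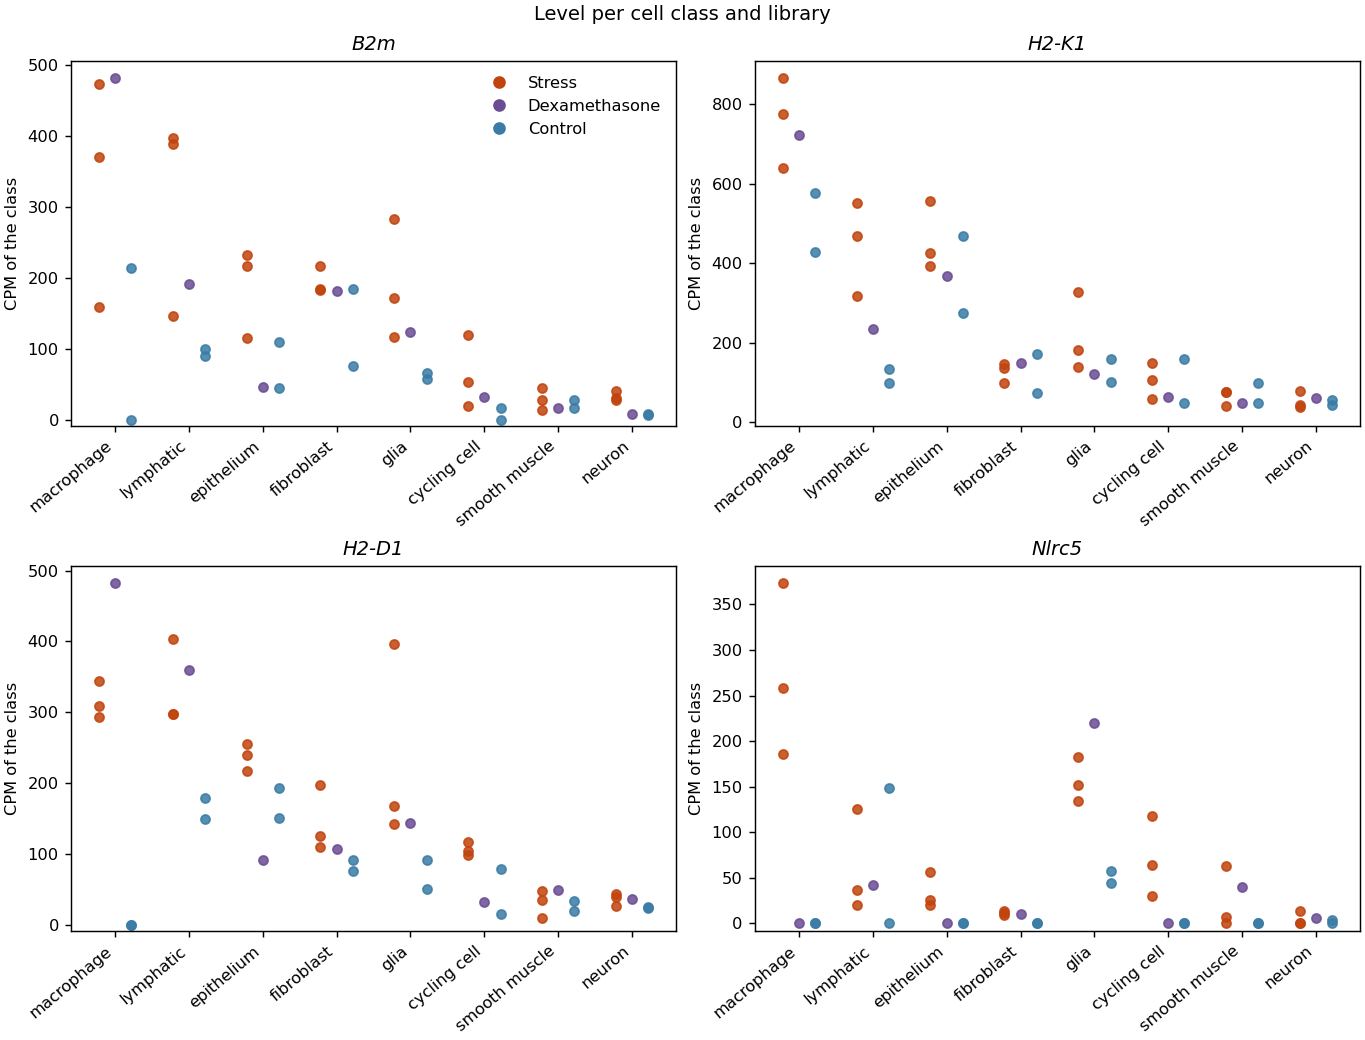
Level of 4 of the genes in 8 cell classes, in CPM of the class; each point is 1 library, and the 38 vascular endothelium-like nuclei are not drawn. Nlrc5 in glia-like nuclei lies between 44.8 and 220 CPM, while in neuron-like nuclei it stays at or under 13.8 CPM.

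Outside glia and neurons, Stress was set against Control in 5 classes, and no member was called in any of them. Epithelium-like B2m was at 233, 116 and 217 CPM in Stress, against 45.2 and 110 CPM in Control (log2 fold change 1.67 ± 0.56, adjusted p = 0.410, edgeR). These were 0 of 3 members tested, where 0% of 2804 genes were called higher. Cluster 2, led by Ifit1bl1 and Slc15a1, held 26 of 79, 158 of 180 and 7 of 26 epithelium-like nuclei in the Stress libraries. In Control it held 40 of 127 and 0 of 23. The epithelium-like values of B2m and Nlrc5 thus compare different mixes of clusters. Epithelium-like Nlrc5 had 4, 12 and 6 UMIs in Stress and 0 in both Control libraries. That is 2.57-fold higher against a floor of 3 counts over the Control group. The counting interval, taken without that floor, starts at 1.92. In lymphatic endothelium-like nuclei H2-K1 was at 550, 318 and 469 CPM in Stress, against 99.4 and 135 CPM in Control, where it had 5 UMIs in all (log2 fold change 1.77 ± 0.64, adjusted p = 0.424, edgeR). There 0 of 2 members tested were called, where 0% of 524 genes were called higher.

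In fibroblast-like nuclei B2m was at 183, 218 and 184 CPM in Stress, against 76.4 and 184 CPM in Control, and 0 of 2 members tested were called, where 0.929% of 1723 genes were called higher. In smooth muscle-like nuclei H2-K1 was at 77.1, 75.9 and 41.8 CPM in Stress, against 48.0 and 99.9 CPM in Control, and the 1 member tested was not called, where 0.176% of 2838 genes were called higher. No member could be tested in cycling cell-like nuclei, where 0% of 1832 genes were called higher. There Nlrc5 had 2, 6 and 6 UMIs in Stress and 0 in Control, 2.18-fold higher against the same floor. The counting interval, taken without that floor, starts at 1.55. Smooth muscle-like Nlrc5 had 1, 0 and 18 UMIs in Stress, 12 UMIs in Dexamethasone, and 0 in Control, so that Stress 3 and Dexamethasone held nearly all of it.

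Barcodes above the mitochondrial limit gave a second set of counts from the same libraries, with 511 to 1372 barcodes in Stress, 464 in Dexamethasone, and 1309 and 2534 in Control. They mix all cell types and were not split by class. Of 8 genes of class II presentation, which antigen-presenting cells carry, 5 were tested there. All 5 had log2 fold changes above 0 in Stress, with a median of 2.94, and none was called by edgeR. Their part in the members' values was not tested. Nlrc5 was at 59.9, 17.8 and 48.6 CPM in Stress, 31.4 CPM in Dexamethasone, and 6.26 and 5.55 CPM in Control. Its log2 fold change in Stress was 2.73 ± 0.60 (adjusted p = 0.854, edgeR). DESeq2 called it (adjusted p = 0.00243), and it was the 1 member so called among 48 genes. Tap1 was at 20.1, 8.85 and 15.4 CPM in Stress, 8.27 CPM in Dexamethasone, and 2.42 and 4.07 CPM in Control, with a log2 fold change of 2.07 ± 0.49 (adjusted p = 0.854, edgeR).

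Psmb8 was at 7.52, 9.67 and 3.84 CPM in Stress above the limit, against 1.21 and 3.03 CPM in Control, and Psmb9 at 10.7, 5.90 and 5.24 CPM, against 1.01 and 4.22 CPM. B2m was at 187, 82.6 and 74.8 CPM in Stress, against 51.3 and 41.9 CPM in Control. Of the 7 members tested there, 0 were called, where 0% of 14245 genes were called higher and 610 had an unadjusted p under 0.05. In 5 of the 7 every Stress library lay above both Control libraries, a pattern seen in 12.8% of genes tested. The other two were H2-K1, at 221, 222 and 117 CPM in Stress against 212 and 184 CPM in Control, and H2-D1, at 205, 146 and 95.9 CPM in Stress against 92.4 and 123 CPM in Control.

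Other genes of the pathway were taken from lists by role, chosen with earlier results of these data known. In Stress glia-like nuclei none of the 2 tested of 17 further class I heavy chains passed; H2-T22 had a log2 fold change of 1.67 ± 0.77 and H2-Q4 of 0.86 ± 0.39. None of 7 tested genes of peptide loading passed (median log2 fold change 0.54, against -0.01 over all genes tested). Among them, Tapbp, the tapasin that holds empty heavy chains at the transporter, was at 1.22 ± 0.45, and Erap1, the peptidase that trims peptides, at 1.31 ± 0.47. None of 8 constitutive proteasome genes passed, with a median of -0.26. Among the factors of the SXY module 3 were tested and none passed (median 0.20). No class II gene and none of the other immunoproteasome genes had enough UMIs to be tested.

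Genes induced by interferon did pass in Stress glia-like nuclei. Of 27 such genes 12 had enough UMIs to be tested. Their median log2 fold change was 2.01, and a gene can pass that filter through the Stress libraries alone. Of the 12, 6 rose, where 1.5% of all 6537 genes tested did. They were the GTPases Irgm1 (3.66 ± 0.45), Iigp1 (5.25 ± 0.70), Gbp7 (1.97 ± 0.38), Irgm2 (1.66 ± 0.37) and Gbp2 (2.24 ± 0.54) and the antiviral gene Oasl2 (2.37 ± 0.38). Stat2, which carries the signal of the type I interferon receptor to the nucleus, also rose (1.12 ± 0.25, adjusted p = 0.0368, edgeR). In neuron-like nuclei 0 of 2 interferon-induced genes tested rose, where 0% of 7514 genes did. Both had log2 fold changes above 0, with a median of 0.56.

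In Dexamethasone glia-like nuclei H2-Q4, a non-classical heavy chain, rose (log2 fold change 1.60 ± 0.44, adjusted p = 0.0387, edgeR), 1 of 4 tested, where 5.28% of 7674 genes were called higher. The kinase Jak1, which is bound to interferon receptors, rose (1.90 ± 0.28), as did Irf9 (2.09 ± 0.48), the DNA-binding partner of Stat2. Of 13 tested interferon-induced genes 3 rose, against the same share, Irgm1 (3.54 ± 0.54), Gbp2 (3.72 ± 0.51) and Gbp7 (1.83 ± 0.47). The median log2 fold change was 1.19 over these 13 genes and -0.06 over all genes tested. These 13 are from a list of 27, and a gene can pass the filter through the Dexamethasone library alone.

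**Figure D5:**
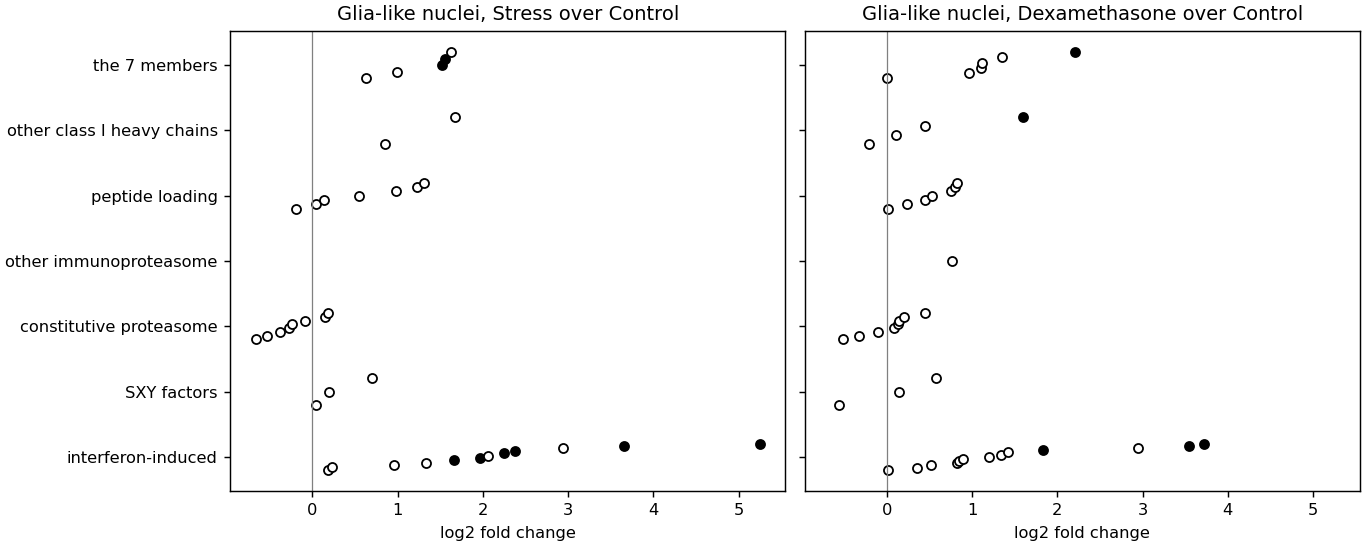
Log2 fold change over Control in glia-like nuclei of the tested genes of each list (rows), for Stress (left) and Dexamethasone (right); each point is 1 gene and filled points have an adjusted p under 0.05. In Stress 6 interferon-induced genes are filled, and none of the constitutive proteasome or peptide loading genes is.

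The genes whose level followed the members most closely were ranked over 12 points, the glia-like and neuron-like sums of 6 libraries centred within each class. The profile was the mean of B2m, H2-K1 and H2-D1, the members tested in both classes. The members and the related lists, interferon-induced genes among them, were left out of the ranking. That left 3988 genes whose log2 CPM averaged 5 or more in both classes. The 8 most alike were Rab5b (r = 0.862), Mapk3 (0.848), Ptms (0.835), Mbtps1 (0.834), Mill2 (0.831), Aplp2 (0.822), Rnf10 (0.817) and Chd4 (0.808). Mill2 is itself an MHC class I-like gene. Over the neuron-like points alone, r ran from 0.269 (Mbtps1) and 0.388 (Chd4) up to 0.879 (Mapk3). Over the glia-like points it was 0.943, 0.931 and 0.953 for these genes. The 2 points of each library share its depth and preparation, so these values are a description.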

How the data were processed

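The authors counted UMIs per gene and barcode with Cell Ranger, version 4.0.0 for the Stress and Control libraries and 5.0.1 for Dexamethasone per the file headers, against mm10 per the submitters' processing notes, which name Cell Ranger 5 and 5.0. The deposited values are raw counts; the other deposited files name genes and barcodes. The treatment of intronic reads is not given in the sources used here. The 7 members and all gene lists were chosen with earlier results of these data known.

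Scrublet through scanpy 1.11.5 removed 31 doublets. The 2000 most variable genes, without the members and related lists, gave 30 principal components, 15 neighbours and 22 Leiden clusters (resolution 1.0). Of these, clusters holding 748 nuclei stayed unnamed. Levels are CPM of the UMI sum of a class. Sums per library and class passed filterByExpr, were scaled by TMM factors and went through edgeR 4.0.16's quasi-likelihood F-test, with Benjamini-Hochberg adjustment over all genes tested and a threshold of 0.05. Standard errors are the log2 fold change over the root of F. Classes needed 10 nuclei per library. Class sums held 310277 to 866813 UMIs in glia-like and 174592 to 1231310 UMIs in neuron-like nuclei. The fits were tested on simulated counts. DESeq2 1.42.0, RLE factors, no filter, thinned totals, other filters and clusterings, a replicate block and left-out libraries were alternatives. Members were named in each comparison; other list genes named are among those that passed, up to 6 per list, and Tapbp, Erap1, H2-T22 and H2-Q4 were added after their values were seen. Counts over the list of interferon signalling genes, and some of its genes, are not reported here. Promoters were credited to RefSeq GRCm38.p6, and 30934 of 31053 gene IDs were found in GENCODE M21.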

Additional observations from a re-analysis of the deposited data

Results flagged for a closer look

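Macrophage-like nuclei were outside the tests because the Control libraries held 6 and 4 of them, against 16, 26 and 19 in Stress. The 7 genes summed reached 2042, 1599.8 and 2026 CPM in Stress, against 641 and 576 CPM in Control, which rests on 140 and 5 UMIs, so that every Stress library lay above both Control libraries. Among the leading genes of this cluster were Dock2, Ptprc and F13a1 but also Bank1 and Lef1, so it holds more than 1 kind of immune cell, and its makeup in each group was not tested.

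Nlrc5 summed over the unnamed clusters was at 47.0, 25.4 and 29.5 CPM in Stress, against 2.93 and 0 CPM in Control, from 44 and 1 UMIs. These clusters mix several kinds of nuclei, in shares that were not set between groups, and the difference was not tested.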

How the results depend on the processing

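In Stress glia-like nuclei, where 2 members were called, leaving out 1 library gave 1 to 2. The count was 0 with limits of 500 genes and 2% mitochondrially encoded UMIs, 0 within glia-like cluster 8, 0 within cluster 9, and 1 without nuclei holding an immune marker UMI. DESeq2 and no filter on low counts gave 3. In Stress neuron-like nuclei the count of 0 was 1 with no filter, where B2m passed. In Dexamethasone glia-like nuclei, 1 member was called, and 1 to 2 with a library left out. Above the mitochondrial limit DESeq2 called 1, against 0. Counts of all genes called moved too. In Stress glia-like nuclei, 133 genes became 89 by DESeq2, 273 with no filter, 32 with the stricter limits, 460 without Control 1 and Stress 1, and 35 to 184 with a library left out (35 without Stress 3). In Stress neuron-like nuclei, 0 became 120 with no filter. In Dexamethasone glia-like nuclei, 450 became 210 by DESeq2 and 786 without Control 1 and Stress 1. The other classes and the difference between classes gave 0 members under every alternative tried.

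No gene that was called changed direction. Values near 0 or from few UMIs did, and the cause was not tested. On the log2 scale, H2-K1 in Stress glia-like nuclei was at -0.046 without Control 1 and Stress 1 and -0.23 within cluster 8. In Stress neuron-like nuclei H2-K1 ranged over -0.31 to 0.41 with a library left out, and was -0.21 at Leiden resolution 0.5 and with the Penk and Tac1 cluster, -0.19 with the lists kept for clustering and -0.39 with doublets kept. In Dexamethasone glia-like nuclei H2-K1 ranged over -0.28 to 0.33 with a library left out, and was 0.011 by DESeq2, 0.012 with RLE factors, 0.011 with no filter, 0.50 with thinned totals, 0.023 with the stricter limits and 0.12 without immune marker nuclei. In Dexamethasone neuron-like nuclei H2-K1 was -0.34 at resolution 0.5, with the lists kept and with the Penk and Tac1 cluster, -0.052 at resolution 2.0, -0.41 with doublets kept and -2.30 with the stricter limits; H2-D1 was -0.092 at resolution 2.0; B2m ranged over -0.23 to 0.14 with a library left out. H2-K1 with a library left out ranged over -0.43 to 0.72 in fibroblast-like nuclei (-0.011 by DESeq2, -0.0048 with RLE), -0.76 to 0.30 in smooth muscle-like nuclei and -0.40 to 0.10 above the limit.

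For the stress effect in glia-like minus neuron-like nuclei, B2m was 0.88 with thinned totals, 0.060 at resolution 0.5, 0.14 with the lists kept, 0.19 with doublets kept and 0.13 with the Penk and Tac1 cluster. Nlrc5 was -0.040 with no filter, -2.03 thinned, -0.074 at resolution 0.5, -0.026 with doublets kept, -3.63 with the stricter limits and -0.00055 with the Penk and Tac1 cluster. Tap1 was -0.027 at resolution 0.5 and -0.59 at resolution 2.0. With a library left out Nlrc5 ranged over -3.73 to 3.01, H2-K1 over -0.17 to 0.81 and Tap1 over -0.21 to 0.61. Over all kept nuclei in place of glia-like ones, the mean level of Nlrc5 was 47.6 CPM and that of Tap1 9.05 CPM.

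The replicate numbers are shared by Stress and Control only for 1 and 2. Deviations from the group mean in same-numbered libraries correlated at -0.159 and -0.019 in glia-like and 0.045 and 0.114 in neuron-like nuclei. The 2 Control libraries deviate from their mean in mirror image, so these values cannot show whether same-numbered libraries share a batch. Stress 3 is alone in its block, so it does not bear on the contrast of the block fit. With the replicate block 3 members and 139 genes were called in Stress glia-like nuclei, against 2 and 133, and 75 genes in Stress neuron-like nuclei, against 0. In Dexamethasone neuron-like nuclei the block gave 211 genes, against 38. With the block, B2m in Dexamethasone neuron-like nuclei was at 0.17, and H2-K1 at -0.034 in fibroblast-like nuclei, 0.076 in smooth muscle-like nuclei and 0.13 above the limit. Psmb8, Psmb9 and neuron-like Nlrc5 are limited by depth, with 23 UMIs or fewer in these classes.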

Other observations

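The unnamed cluster led by Penk and Tac1 went the other way for the light chain. B2m there had 1, 4 and 1 UMIs in Stress (13.6, 22.7 and 6.80 CPM), 2 UMIs in Dexamethasone (17.1 CPM), and 5 and 1 UMIs in Control (56.3 and 60.7 CPM). H2-K1 had 1, 8 and 9 UMIs in Stress, 1 UMI in Dexamethasone, and 16 and 1 UMIs in Control. At these counts the values are a description, and no difference was tested.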
